A study of Mus musculus with 6 samples.

Results

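Genes of adenosine and endocannabinoid signalling were followed in the striatum of mice whose sires had been given methylphenidate or saline. The 10 genes were taken by symbol from the authors' deposited count table of 45777 genes, which held 1 row for each: Adora2a, Adora1, Nt5e, Adk, Cnr1, Dagla, Daglb, Mgll, Faah and Gpr6. All 10 passed the filter on low counts that left 17874 genes for testing. The animals were 6-week-old offspring of the outbred ICR strain, 3 per group, with 2 females and 1 male listed in each. Their sires, ICR males 6 weeks old, had received methylphenidate at 15 mg/kg or saline at 10 mL/kg subcutaneously for 21 days and were then mated with females given no drug, so no offspring was itself treated. Methylphenidate blocks the dopamine and noradrenaline transporters. How many sires and litters they came from is not stated in the sources used here, so animals of a group may be related, and a p-value reflects only how much these samples vary. Libraries are called by the group and number in the table's column names, as saline 3, saline 4 and saline 5 and, with MPH for methylphenidate-sired, MPH 2, MPH 4 and MPH 6. These numbers could not be tied to a labelled animal, so the labels do not give the sex of a library. It was not sought in the counts, and no fit took sex into account.

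Adenosine is formed outside cells from released ATP and acts on G protein-coupled receptors. In the striatum the A2a receptor, which raises cyclic AMP, sits mainly on medium spiny neurons of the indirect pathway, where it opposes the dopamine D2 receptor, while the more widespread A1 receptor lowers cyclic AMP and restrains transmitter release, at cortical terminals among others. Endocannabinoids are lipids that a postsynaptic neuron makes on demand and that act backwards on the CB1 receptor of the presynaptic terminal. The main one, 2-arachidonoylglycerol, is made by diacylglycerol lipases and broken down chiefly by monoacylglycerol lipase, and fatty acid amide hydrolase breaks down anandamide.

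Total counts lay between 31360042 and 38844724 per library, of which 49737 to 59420 fell on the 10 genes. The unit of level is CPM, a count scaled to the TMM-adjusted library size. Striatal identity was checked on 14 shared medium spiny neuron markers, all of them detected, with the defining marker Ppp1r1b, which encodes DARPP-32 and was picked after its values were seen, at 1778 ± 123 CPM in saline-sired animals and 1529 ± 140 in the methylphenidate-sired group (SD, n = 3). All 14 had negative fold changes, with a median of -0.17 on the log2 scale. Markers of cortical excitatory neurons summed to 767, 464.5 and 966.5 CPM in saline 3, 4 and 5 and to 1163, 1212 and 1337 CPM in MPH 2, 4 and 6, and 12 of 12 had positive fold changes (median 0.86). Choroid plexus markers summed to 2106, 369.5 and 30.9 CPM against 37.5, 87.4 and 56.8, and 9 of 9 had negative fold changes. In tissue RNA, fewer cells of a type and less RNA per cell cannot be told apart.

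Adora2a and Gpr6 were at lower levels in the methylphenidate-sired group, and Adora1, Mgll and Faah at higher levels, by 14% to 31%. None of the 10 genes passed the edgeR quasi-likelihood test at a Benjamini-Hochberg adjusted p under 0.05 over all genes, where 0.0224% of genes tested were called, all 4 of them lower. At an unadjusted edgeR p under 0.05 there were 5 of the 10, 2 lower and 3 higher, against 9.02% of all genes tested (3.95% lower and 5.07% higher). The groups did not overlap in 7 of the 10, 2 lower and 5 higher, against 14.8% of all genes tested (7.01% lower and 7.84% higher). The 10 genes and the other lists were chosen with earlier results of these data known. Counts set beside these shares therefore describe a list and do not test it. Fold changes were negative for 5 of the 10 and for 53% of all genes tested, and the median log2 fold change was 0.04 for the 10 genes and -0.01 for all genes. DESeq2 called 2 of the 10, Adora2a and Adora1, against 1.43% of the 12838 genes to which it gave an adjusted p, and limma-voom called 0 of the 10, against 0.0224% of genes.

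**Figure D1:**
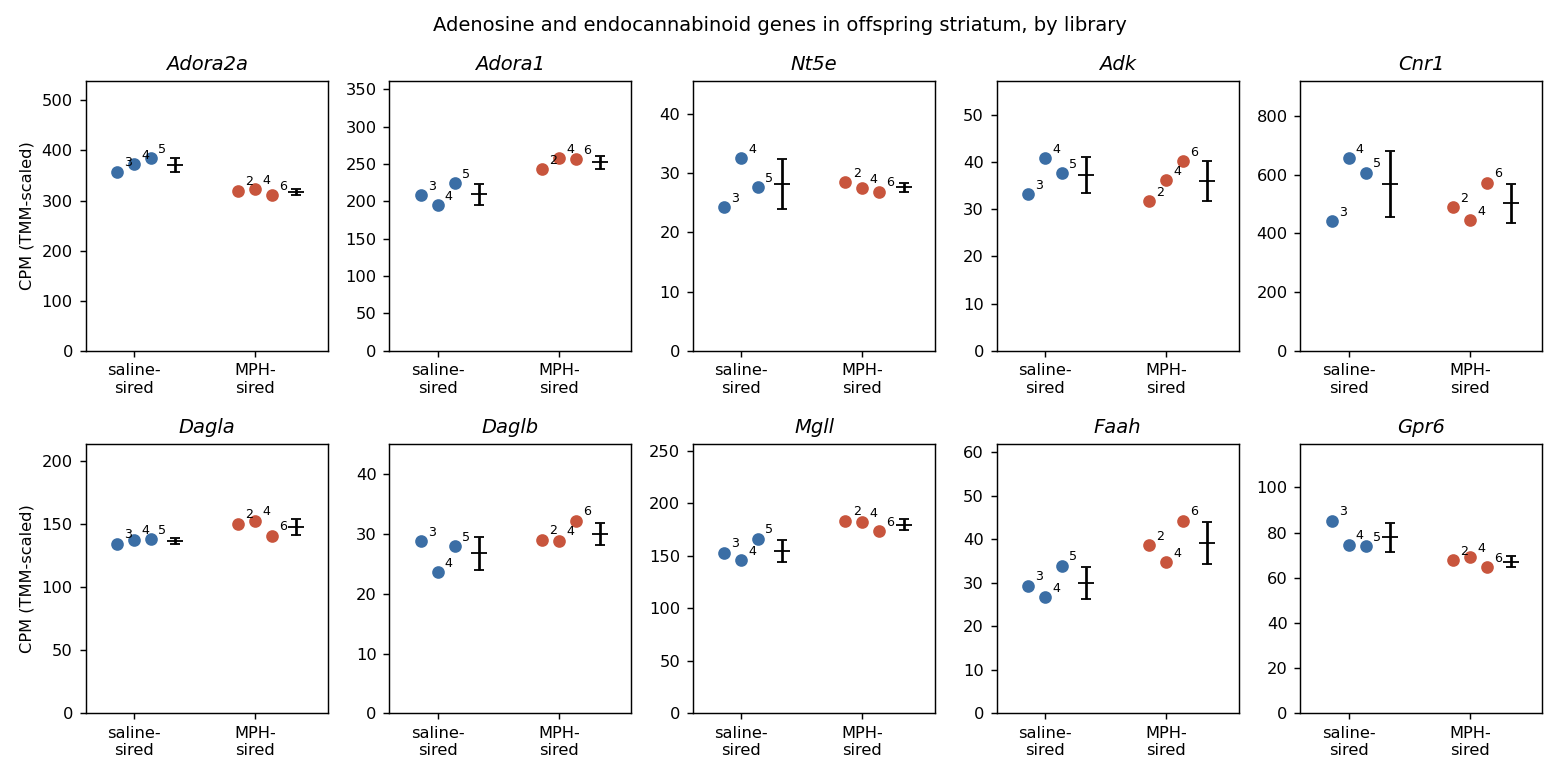
Level of each gene in CPM (vertical axes, starting at 0) in the 3 saline-sired (blue) and 3 methylphenidate-sired (MPH, red) libraries, each point labelled with its column number; black marks are the group mean with its SD. The groups do not overlap for Adora2a, Gpr6, Adora1, Dagla, Daglb, Mgll and Faah, and they overlap for Nt5e, Adk and Cnr1.

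Start-site sequences are shown for one gene at lower and one at higher levels, Gpr6 and Adora1, because cyclic AMP, which these receptors act on, is known to switch on genes through the CRE motif TGACGTCA. RefSeq's table for GRCm38.p6, the assembly that mm10 names, held start sites for 8 of the 10 genes, in 13 windows. It held none for Adora2a and Dagla, so these were not searched. The 250 bases upstream of the start site are printed 5′ to 3′ on the gene's own strand, with a CRE in capitals. The Gpr6 window is chr10:41072291-41072540 and the Adora1 window printed is chr1:134235458-134235707, both on the minus strand. Adora1 had a further window, which is not printed.
Gpr6: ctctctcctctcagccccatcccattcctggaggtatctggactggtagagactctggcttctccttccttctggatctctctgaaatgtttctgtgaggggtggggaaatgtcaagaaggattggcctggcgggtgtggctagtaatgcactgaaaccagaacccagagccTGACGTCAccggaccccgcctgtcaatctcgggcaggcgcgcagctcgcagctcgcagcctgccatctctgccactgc
Adora1: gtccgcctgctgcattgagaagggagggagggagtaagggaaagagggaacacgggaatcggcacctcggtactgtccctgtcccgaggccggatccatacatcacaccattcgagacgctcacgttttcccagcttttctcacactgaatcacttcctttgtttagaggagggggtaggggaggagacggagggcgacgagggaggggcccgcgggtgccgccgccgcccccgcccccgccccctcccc
The Gpr6 window held 1 CRE, whose first base lies 78 bases before the start site. The motif reads the same on both strands, and none of the other 12 windows held it. Among all 32851 windows of this length in the table, 1.55% held it. A match describes the sequence only, and whether the site is bound was not measured.

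Of the receptors, Adora2a (Gene ID 11540, chromosome 10, 75316877 to 75334792, plus strand) encodes the A2a receptor. It was at 357, 373 and 385 CPM in saline 3, 4 and 5, and at 319.9, 323 and 311 CPM in MPH 2, 4 and 6. All 3 methylphenidate-sired libraries lay below all 3 saline-sired ones, and within each group the values were close. The means were 372 ± 13.8 and 318 ± 6.06 CPM (SD, n = 3), a log2 fold change of -0.23 (SE 0.06, 95% interval -0.36 to -0.09), which ranked 182nd of 17874 genes by p. The edgeR adjusted p was 0.420, and DESeq2 gave an adjusted p of 0.0263. Its raw counts were 14198, 11881 and 11998 against 10508, 10313 and 10516, so counting error is small beside the difference.

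Adora1 (Gene ID 11539, chromosome 1, 134199215 to 134235457, minus strand) encodes the A1 receptor. Its levels were 208.5, 195 and 224 CPM in saline 3, 4 and 5 against 243, 258 and 256 CPM in MPH 2, 4 and 6. Again the groups did not overlap, here with the methylphenidate-sired libraries above, and saline 4 was the lowest. The means were 209 ± 14.6 and 252 ± 8.28 CPM, a log2 fold change of 0.27 (SE 0.07, 95% interval 0.11 to 0.43), ranked 164th by p (edgeR adjusted p = 0.420, DESeq2 adjusted p = 0.0310). Exons of Mybph on the other strand cover 20.1% of the Adora1 exonic length, and the sources used here do not state whether counting used strand. Mybph itself had between 2 and 18 counts per library against 6211 to 8654 for Adora1.

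The A2a and A1 receptor genes stood on opposite sides, so by construction their ratio differs between the groups by more than either gene does. The ratio of Adora2a to Adora1 counts was 1.71, 1.91 and 1.72 in saline 3, 4 and 5 and 1.32, 1.25 and 1.22 in MPH 2, 4 and 6. Means were 1.78 ± 0.114 and 1.26 ± 0.0521 (SD, n = 3), a log2 difference of -0.50. A ratio within a library does not depend on how libraries are scaled. No test is given for it, because it rests on the same values as the fold changes of both genes.

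Gpr6 (Gene ID 140741, chromosome 10, 41069977 to 41072290, minus strand) encodes an orphan receptor related to the lipid-receptor family that includes CB1. It signals without an added ligand to raise cyclic AMP, and in the striatum it marks indirect-pathway neurons together with Adora2a. Its levels were 85.2, 74.6 and 73.9 CPM in the saline libraries and 67.8, 69.1 and 64.6 CPM in the MPH libraries. The groups did not overlap, and saline 3 was the highest. Between the groups the log2 fold change was -0.21 (SE 0.07, 95% interval -0.38 to -0.05, edgeR adjusted p = 0.470). The ratio of Adora2a to Gpr6 counts overlapped between the groups, at 4.80 ± 0.534 and 4.74 ± 0.0753 (SD, n = 3), with a log2 difference of -0.01. Its 2 relatives, Gpr3 and Gpr12, stood at 0.37 (SE 0.34) and -0.17 (SE 0.13) on the same scale, and the groups overlapped for both.

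Cnr1 (Gene ID 12801, chromosome 4, 33923171 to 33948831, plus strand) encodes the CB1 receptor and was the gene of the 10 with the most counts. Its levels were 442, 657 and 607 CPM in saline 3, 4 and 5 and 489, 445 and 573 CPM in MPH 2, 4 and 6. The groups overlapped, with the lowest and the highest value both in saline-sired libraries. Its log2 fold change was -0.18 (SE 0.15, 95% interval -0.52 to 0.17, edgeR adjusted p = 0.755), so a change of either sign could not be told from none at this spread. It was -0.33 without saline 3, -0.28 without MPH 6, -0.06 without saline 4, -0.12 without saline 5 and -0.09 without MPH 4.

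**Figure D2:**
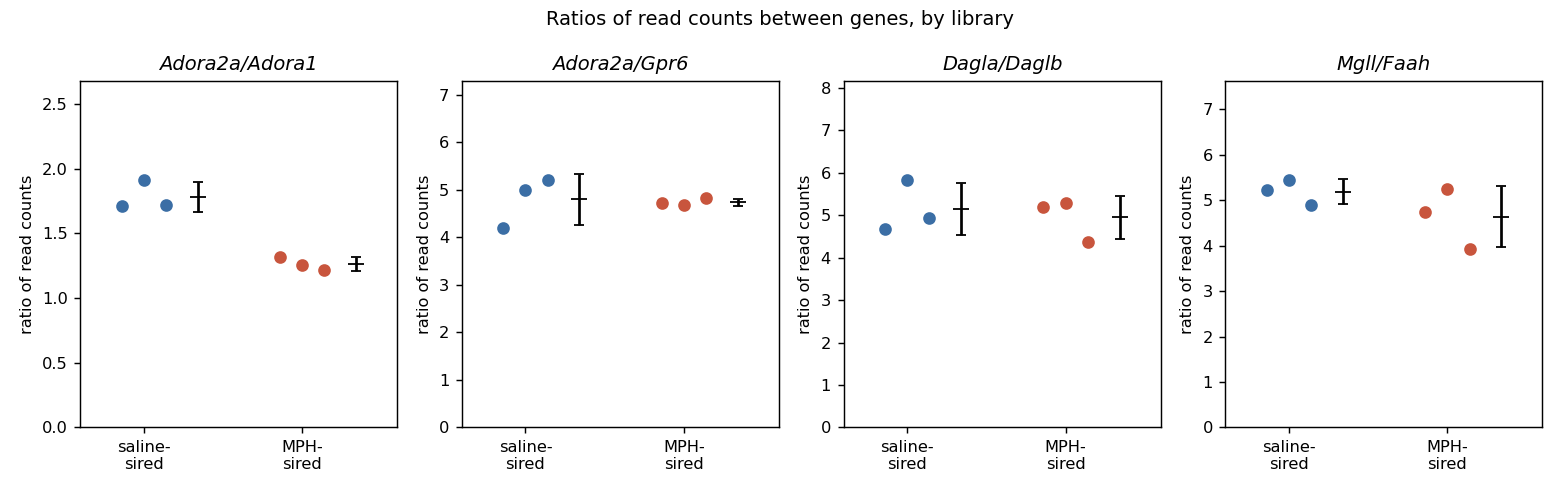
Ratios of read counts between pairs of genes (vertical axes, starting at 0) in saline-sired (blue) and methylphenidate-sired (MPH, red) libraries, with group means and SD in black. The Adora2a to Adora1 ratio does not overlap between the groups (1.71 to 1.91 against 1.22 to 1.32), and the other 3 ratios overlap.

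Of the enzymes of adenosine, Nt5e (Gene ID 23959, chromosome 9, 88327609 to 88372089) encodes CD73, which makes adenosine from AMP outside cells. It was at 24.2, 32.6 and 27.7 CPM in the saline libraries and at 28.5, 27.5 and 26.9 CPM in the MPH libraries. The methylphenidate-sired values lay within the range of the saline-sired ones. The log2 fold change was -0.03 (SE 0.11, 95% interval -0.28 to 0.23, edgeR adjusted p = 0.968). Adk (Gene ID 11534, chromosome 14, 21052574 to 21448569) encodes adenosine kinase, which clears adenosine inside cells, in the adult brain mainly in astrocytes. It was at 33.2, 40.9 and 37.6 CPM against 31.8, 36.1 and 40.2 CPM. These groups overlapped too, and the log2 fold change was -0.05 (SE 0.11, 95% interval -0.30 to 0.21, edgeR adjusted p = 0.931).

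Of the enzymes that make 2-arachidonoylglycerol, Dagla (Gene ID 269060, chromosome 19, 10245265 to 10304877) encodes the diacylglycerol lipase that serves synapses in the adult brain. It was at 134, 137.5 and 138 CPM in the saline libraries and at 150.3, 153 and 141 CPM in the MPH libraries. The groups did not overlap, though saline 5 and MPH 6 lay close together. Its log2 fold change was 0.11 (SE 0.06, 95% interval -0.01 to 0.24, edgeR adjusted p = 0.588). Daglb (Gene ID 231871, chromosome 5, 143464484 to 143504442) encodes the other isoenzyme. It was at 28.7, 23.6 and 27.9 CPM against 29.0, 28.8 and 32.2 CPM, with saline 3 just below MPH 4. The log2 fold change was 0.16 (SE 0.10, 95% interval -0.06 to 0.39, edgeR adjusted p = 0.657), and it was 0.08 without saline 4. The Daglb value is uncertain, because exons of Rac1 on the other strand cover 49.6% of its exonic length and Rac1 had 8484 to 10359 counts per library, against 751 to 1142 for Daglb. The log2 fold change of Rac1 was 0.02 (SE 0.06).

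Of the enzymes that break endocannabinoids down, Mgll (Gene ID 23945, chromosome 6, 88724412 to 88828360) encodes monoacylglycerol lipase. It was at 153, 145.5 and 166 CPM in saline 3, 4 and 5 and at 183, 182 and 173 CPM in MPH 2, 4 and 6. All methylphenidate-sired values lay above all saline-sired ones. The log2 fold change was 0.21 (SE 0.07, 95% interval 0.06 to 0.36, edgeR adjusted p = 0.458). Faah (Gene ID 14073, chromosome 4, 115996668 to 116018837) encodes fatty acid amide hydrolase and had the largest fold change of the 10. It was at 29.3, 26.7 and 33.9 CPM against 38.6, 34.6 and 44.2 CPM, without overlap and with saline 4 the lowest. For Faah the log2 fold change was 0.39 (SE 0.12, 95% interval 0.12 to 0.66, edgeR adjusted p = 0.457). The ratio of Mgll to Faah counts overlapped between the groups, at 5.19 ± 0.274 and 4.64 ± 0.672 (SD, n = 3), and so did that of Dagla to Daglb, at 5.15 ± 0.606 and 4.95 ± 0.503.

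Adora1, Mgll, Faah and Daglb each had their lowest value in saline 4. In mean log2 CPM, oligodendrocyte and astrocyte markers were highest in that library, 0.54 and 0.20 above the mean of the 6 libraries. The cortical excitatory neuron markers were lowest in it. From MPH 2 to MPH 4 and MPH 6 these cortical markers rose, whereas Mgll fell and Faah was lowest in MPH 4. In a fit that took the level of these markers as a covariate, chosen after seeing the data, the log2 fold changes of Adora1, Mgll and Faah were 0.14 (SE 0.09), 0.11 (SE 0.09) and 0.14 (SE 0.14), against 0.27, 0.21 and 0.39 without it. That of Daglb was -0.03 (SE 0.12). Those of Adora2a, Gpr6 and Dagla were -0.24 (SE 0.09), -0.22 (SE 0.12) and 0.13 (SE 0.09), close to the values without it, and that of Cnr1 was -0.08 (SE 0.23) against -0.18. At an unadjusted edgeR p under 0.05 there was 1 of the 10 genes in this fit, Adora2a, against 3.65% of all genes. The marker level itself differs between the groups, so in this fit it and the sire's treatment cannot be fully told apart. Without saline 3 and 4, which stood apart in their marker levels, 1 of the 10 genes, Adora2a, had an unadjusted edgeR p under 0.05, against 5.05% of all genes. This fit, also chosen after seeing the data, has a single saline-sired library. In it Adora2a was at -0.28 on the log2 scale, Gpr6 at -0.14, Adora1 at 0.17, Mgll at 0.11, Faah at 0.21, Daglb at 0.10 and Cnr1 at -0.27.

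**Figure D3:**
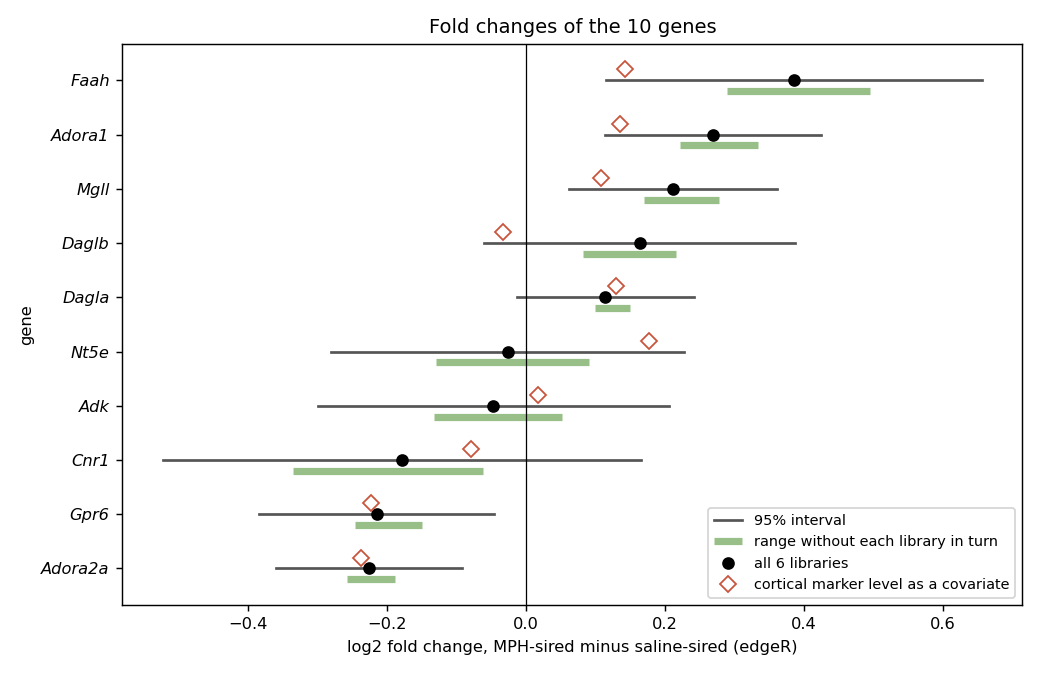
Log2 fold change of each gene (horizontal axis, methylphenidate-sired, MPH, minus saline-sired) with its 95% interval (grey), the range without each library in turn (green) and the value with the level of cortical markers as a covariate (red diamonds). The Adora2a and Gpr6 values stay near -0.2 with the covariate, and those of Faah, Adora1 and Mgll lie at 0.14, 0.14 and 0.11.

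Fold changes were negative for 14 of 14 shared medium spiny neuron markers (median -0.17) and 7 of 8 direct-pathway ones (median -0.14). Of lowest p in the first list were Pde1b (-0.26, SE 0.06) and Scn4b (-0.29, SE 0.07). In the second they were Tac1 (-0.32, SE 0.08) and Drd1 (-0.21, SE 0.08). None passed the edgeR test, and DESeq2 called 2 of the 14 and 1 of the 8, against 1.43% of genes with an adjusted p. Lower levels were thus not particular to the indirect pathway. Adora2a and Gpr6 were set against 5 other markers of indirect-pathway neurons, Drd2, Penk, Gpr52, Sp9 and Plxdc1. Relative to the mean log2 CPM of these markers, Adora2a was at 1.52, 1.51 and 1.51 in the saline-sired and at 1.31, 1.30 and 1.38 in the methylphenidate-sired libraries. The groups did not overlap (difference -0.18, exact two-sided permutation p = 0.1, the smallest that 3 libraries against 3 can give). For Gpr6 the difference was -0.17 (exact two-sided permutation p = 0.1). The list itself was mixed: Drd2, the D2 receptor gene, was at -0.19 on the log2 scale (SE 0.07), while Plxdc1 had 0.40 (SE 0.12), and 4 of the 5 were negative. With the median of the markers in place of their mean, the difference was -0.09 for Adora2a (exact two-sided permutation p = 0.2) and -0.07 for Gpr6 (exact two-sided permutation p = 0.9), and full separation of the groups was lost for both. Cnr1 relative to the 14 shared medium spiny neuron markers differed by 0.02 and Adk relative to 10 astrocyte markers by 0.0025, with an exact two-sided permutation p of 1 for each.

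**Figure D4:**
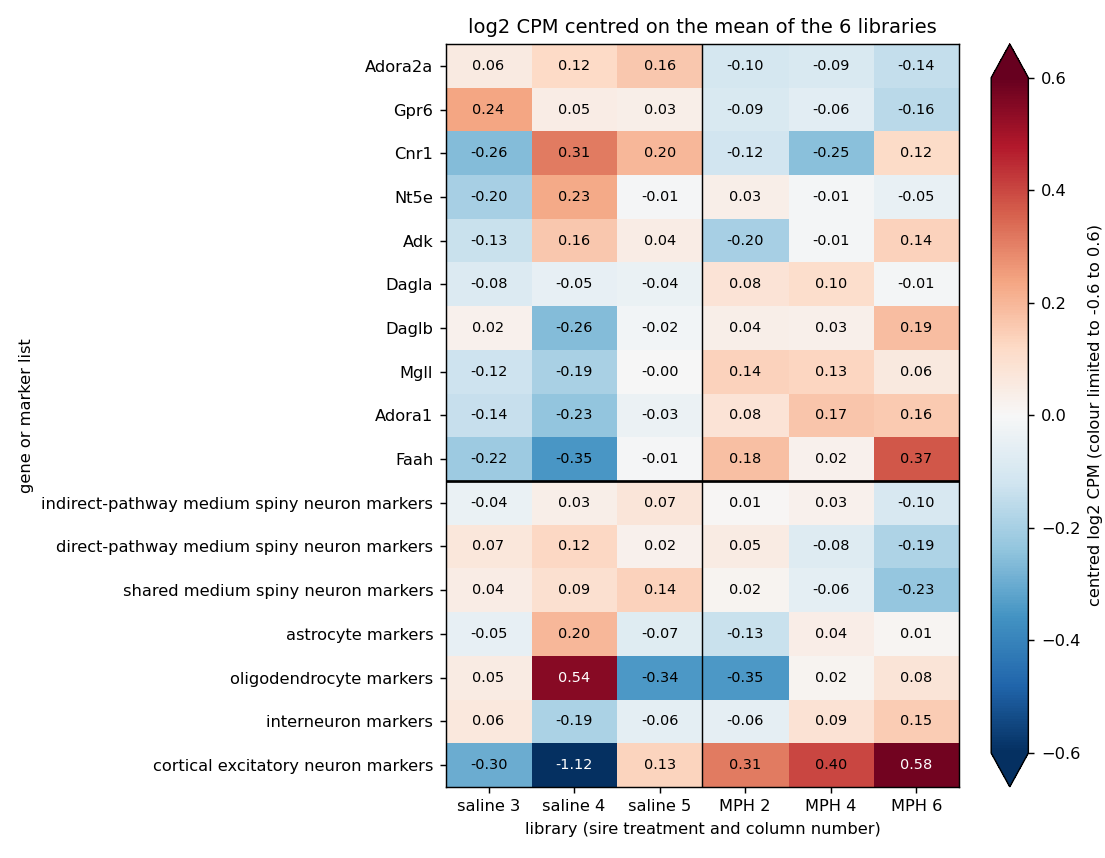
Log2 CPM of the 10 genes (upper rows) and mean log2 CPM of marker lists (lower rows) in each library, centred on the mean of the 6 libraries, with the value written in each cell. Adora2a and Gpr6 are positive in all saline-sired and negative in all methylphenidate-sired (MPH) libraries, and Faah, Adora1 and Mgll follow the sign of the cortical markers except in saline 5.

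Per kilobase of exonic length in GENCODE, the order of the levels was led by the receptors. Adora2a was highest at 133 ± 11.9 CPM per kilobase (SD over the 6 libraries), followed by Cnr1 at 85.0 ± 14.3, Gpr6 at 40.6 ± 4.07 and Adora1 at 39.9 ± 4.47. The enzymes followed, with Mgll at 34.7 ± 3.19, Dagla at 25.3 ± 1.32, Adk at 18.8 ± 1.88, Faah at 9.03 ± 1.65, Nt5e at 6.99 ± 0.680 and Daglb at 6.10 ± 0.595. The values of the 6 libraries overlapped between the neighbours Gpr6 and Adora1, Adora1 and Mgll, Faah and Nt5e, and Nt5e and Daglb. They did not overlap between the other neighbours in this order. Gpr6 and Mgll, which are not neighbours, overlapped as well, at 36.15 to 47.7 and 30.2 to 38.0 CPM per kilobase. By group means, Gpr6 was above Adora1 in saline-sired animals (43.6 against 36.2 CPM per kilobase) and below it in the methylphenidate-sired group (37.6 against 43.6), and the rest of the order was the same in both. The Daglb level can include reads of Rac1.

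The other genes of adenosine signalling and turnover had negative fold changes in 11 of 17 (median -0.12), against 53% of all genes. None of the 17 passed the edgeR or DESeq2 test, and 4 had an unadjusted edgeR p under 0.05, 3 lower and 1 higher, against 9.02% of all genes (3.95% lower and 5.07% higher). Of these, Entpd3, an ectonucleotidase gene of ATP breakdown, was at 22.9 ± 0.441 and 18.9 ± 1.95 CPM (log2 fold change -0.28, SE 0.10, edgeR adjusted p = 0.470). Pnp, which degrades inosine, had -0.26 (SE 0.11). The pair that carries the A2a signal, Adcy5, the main striatal adenylyl cyclase gene, and Gnal, which encodes the stimulatory G protein subunit that activates it, were at 1604 ± 88.4 and 955 ± 45.0 CPM in saline-sired animals and at 1385 ± 126 and 878 ± 74.3 in the methylphenidate-sired group. Their log2 fold changes were -0.21 (SE 0.08) and -0.12 (SE 0.08), and the groups overlapped for Gnal. Gnai1, which encodes an inhibitory G protein subunit of the kind the A1 receptor uses, was at 115 ± 11.3 and 134.5 ± 4.58 CPM (0.23, SE 0.08, edgeR adjusted p = 0.470), without overlap.

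The other genes of endocannabinoid signalling had positive fold changes in 11 of 15 that passed the filter, out of 18 listed (median 0.07), against 8394 of 17874 genes tested. None of the 15 passed the edgeR, DESeq2 or limma-voom test, and 4 had an unadjusted edgeR p under 0.05, 1 lower and 3 higher, against 9.02% of all genes. Pla2g4e, which encodes an acyltransferase that makes anandamide precursors, was at 29.5 ± 2.34 and 36.1 ± 2.29 CPM (log2 fold change 0.29, SE 0.09, edgeR adjusted p = 0.452). Plcb4, a phospholipase C gene, had 0.37 (SE 0.13), and Cnrip1, which encodes a protein that binds the CB1 receptor, had 0.37 (SE 0.16). For Cnrip1 the groups overlapped, at 24.7, 21.2 and 34.45 CPM in saline 3, 4 and 5 and 34.2, 34.2 and 35.5 in MPH 2, 4 and 6. Fabp5, which encodes an intracellular carrier of endocannabinoids, was at 53.4 ± 2.73 and 46.3 ± 1.198 CPM (-0.21, SE 0.07, edgeR adjusted p = 0.470). The 2 genes of the list at the highest levels, Grm5 and Plcb1, whose products drive the supply of diacylglycerol, had -0.04 (SE 0.09) and 0.03 (SE 0.08). Cnr2, the CB2 receptor gene, had 4 to 8 counts per library and fell below the filter, as did Gpr55 with 0 to 13 counts and Trpv1 with 0 counts in every library.

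**Figure D5:**
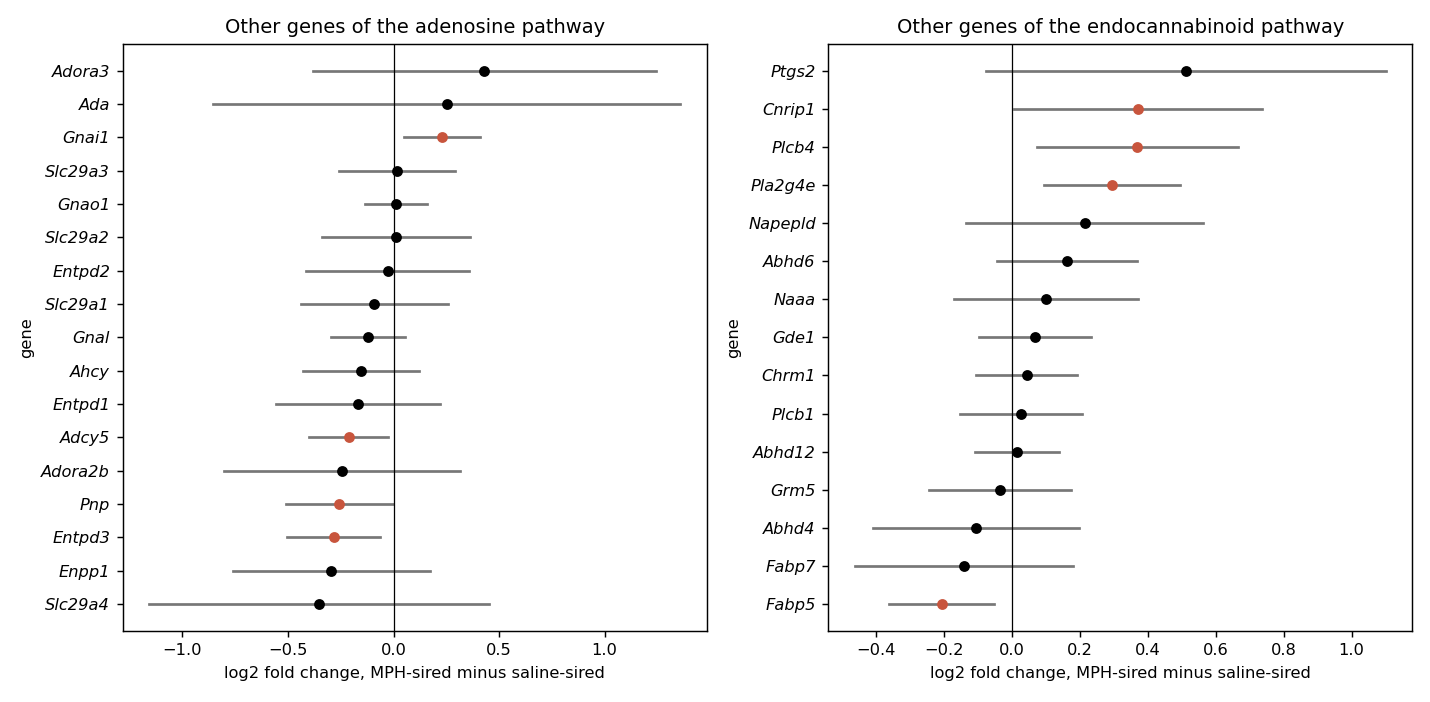
Log2 fold change (horizontal axes, methylphenidate-sired, MPH, minus saline-sired) with 95% interval for the other adenosine (left) and endocannabinoid (right) genes tested; red points have an unadjusted edgeR p under 0.05. Points lie left of 0 for 11 of 17 adenosine genes and right of 0 for 11 of 15 endocannabinoid genes.

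The 5 genes whose pattern over the 6 libraries was most like that of Adora2a were Lime1, Taz, Cbr3, Rtl1 and Crtc2, out of 10658 genes that averaged 3 or more in log2 CPM. Likeness was the root-mean-square difference of centred log2 CPM, which was 0.02 for Lime1 and Taz, 0.03 for Cbr3 and 0.04 for Rtl1 and Crtc2, against 0.12 for Adora2a about its own mean. Lime1 was at 28.2, 28.9 and 30.2 CPM in the saline libraries and at 25.6, 24.9 and 25.0 CPM in the MPH libraries. With 6 libraries, many genes can lie this close, and nothing on shared function follows.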

How the data were processed

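Per the submitters' processing notes, bcl2fastq 2.20.0, Trimmomatic, HISAT2 2.1.0 and StringTie 2.1.3b were used with build mm10; how they were set, whether strand was used and how multi-mapping reads were handled are not stated in the sources used here. Whole-number read counts per RefSeq gene, not normalized, fill 1 column per library of the authors' deposited table. Its other 12 per-library columns were not used. Each column was tied to its group by name.

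Counts were tested in all 6 libraries with edgeR 4.0.16 (R 4.3.3; quasi-likelihood F test, TMM, filterByExpr), with p-values adjusted by Benjamini-Hochberg over 17874 genes at 0.05. SE values come from the fold change and F statistic. DESeq2 1.42.0, limma-voom (limma 3.58.1), other scalings and filters, and leaving out each library were alternatives. The fits were also tried on simulated data, in which every changed gene changed by more than any of the 10 genes did here. Recovery of changes as small as theirs was not tested. Log2 CPM used a prior count of 2. The members and lists were chosen with earlier results of these data known. All 10 members were named. Other genes were named if past the test, otherwise the 4 of lowest p and the 2 of highest level per list. For marker lists the limit was 2 of lowest p, and the text gives those it describes. Named outside this rule were Ppp1r1b, the full set of indirect-pathway markers, genes below the filter, overlapping genes and the genes most like Adora2a. Exon overlaps and lengths came from GENCODE vM21 (GRCm38), coordinates and start sites from RefSeq (GRCm38.p6). blastn 2.17.0 (at least 95% identity over 200 nucleotides) found no copy of a member other than the Mybph overlap.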

Additional observations from a re-analysis of the deposited data

How the results depend on the processing

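With edgeR, 4 genes passed the test over all genes; DESeq2 called 183 and, of the 10 described here, 2 (Adora2a, log2 fold change -0.22, and Adora1, 0.27). Without each library in turn the count over all genes was 1 to 4, lowest without MPH 6. Of the 10 genes, 0 passed in any of these fits. In each, 5 had an unadjusted edgeR p under 0.05, against 5.82% (without MPH 6) to 12.9% (without saline 5) of all genes. Adora2a, Adora1, Mgll and Faah were among these 5 each time. Gpr6 was too, except without saline 3, where Cnr1 took its place, and without MPH 6, where Dagla did. No edgeR call was left (0 genes) once the level of cortical markers was a covariate, where 652 genes had an unadjusted p under 0.05, or without saline 3 and 4 together (0 genes, 958 at an unadjusted p under 0.05), which leaves 1 saline-sired library that is assumed to vary like the others. The number of negative fold changes among the 10 was 3 to 5 without each library, lowest without saline 4.

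The signs of Adora2a, Gpr6, Cnr1, Adora1, Dagla, Mgll and Faah held under every alternative run. Nt5e ranged from -0.13 to 0.092 and Adk from -0.13 to 0.052 without each library, and with the cortical covariate Nt5e, Adk and Daglb had 0.178, 0.018 and -0.033, and the cause was not tested. Relative to markers, Cnr1 ranged from -0.15 to 0.13 and Adk from -0.060 to 0.061 without each library; Gpr6 ranged from -0.23 to -0.07 and was nearest 0 without saline 3. Groups did not overlap in 6 of the 10 with upper-quartile scaling or the stricter filter, against 15% and 15.5% of all genes, and in 7 or 8 without each library, against 23% to 31.2%. No paired analysis was possible because the columns carry no replicate number of the labels. For the 10 genes, at 751 to 20932 counts per library, edgeR put the variation between libraries beyond counting error at 0.064 (Dagla) to 0.14 (Cnr1) of the mean. The number of libraries therefore limits their precision more than depth does.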
